A study of Mus musculus with 11 samples.

Results

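Oligodendrocytes are the cells that wrap axons of the central nervous system in myelin. The nuclei described here carry the class name Oligodendrocytes in the deposited annotation and lie in cluster 3, the cluster that holds most nuclei of that name. They number 12991 of the 110304 nuclei deposited (11.8%), 90.7% of the 14321 nuclei named oligodendrocytes and 97.4% of the 13332 nuclei of the cluster. The name and the cluster number were both taken as deposited, and no dosing group was used to choose the nuclei. Clusters were formed from measured RNAs, and the sources used here do not say whether Malat1 was among them, so Malat1 itself may bear on which nuclei lie inside the cluster. The other 1330 named oligodendrocytes, of which 779 are in cluster 5 and 344 in cluster 7, serve below as a comparison.

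Each of the 11 libraries holds brain nuclei of 1 mouse. By the labels, all mice carried the human transferrin receptor (TfR) as a homozygous knock-in (hTfR KI HOM). All mice received 4 weekly intravenous doses, and tissue was frozen 72 h after the last. OTV:Malat1 (60 mg/kg, n = 3) is a TfR-binding transport vehicle that carries an antisense oligonucleotide (ASO) against Malat1. In nonTV:Malat1 (60 mg/kg, n = 3) the ASO is on a molecule that does not bind the TfR, and these libraries are titled RSV-ASO. Mice of the Malat1 ASO group (n = 2) received the oligonucleotide alone at 2.5 mg/kg, a dose described as equivalent in ASO. ATV:BACE1 (n = 3), a TfR-binding molecule without an ASO, was the control. Its dose was 57 mg/kg by the sample labels, where the series text can be read as 60. The control mice thus also carried the knock-in and also received a TfR-binding protein. All groups were dosed, so any effect of ATV:BACE1 itself, including one on BACE1, enters every change against it. Replicate 1 of each group was a female of 2.33 months, replicate 4 a male of 2.57 months and replicate 5 a male of 2.33 months, and the Malat1 ASO group has replicates 1 and 5. The deposited batch number follows the replicate number, so batch, sex and age cannot be told apart. The labels name the posterior brain where the deposited metadata name cortex, and the metadata give the strain as C57BL/6J without a knock-in. Statements on TfR binding below follow the labels.

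Malat1 is a long non-coding RNA that stays in the nucleus, where it gathers in nuclear speckles, and it is among the most abundant RNAs seen in nuclei of most tissues. An ASO of the kind used to lower such RNAs pairs with its target, and RNase H1 then cuts the RNA of the hybrid. Large molecules and free oligonucleotides cross the blood-brain barrier poorly, and binding to the TfR of brain endothelium is a known route of transport across it. Mature oligodendrocytes are recognised by RNAs for myelin proteins such as Mbp, Mobp, Mog and Mag and by the transcription factor St18.

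The summed UMIs (unique molecular identifiers, each standing for 1 captured RNA molecule) of these nuclei ranged from 769356 to 1781465 per library, from 893 to 1537 nuclei. The nuclei were shallow, with a median of 910 UMIs and a range of 500 to 7908, and 59.3% of them held under 1000. Group means of the median depth were 862 UMIs in ATV:BACE1, 930 in nonTV:Malat1, 920 in OTV:Malat1 and 967 in Malat1 ASO, and the groups overlapped. The deposited doublet call marked 3 of the nuclei (0.0231%), and 15 of their 12976 distinct barcodes occurred in 2 or more libraries. The share of a library's nuclei that fell in the class was 11.7% ± 2.16 in ATV:BACE1, 11.4% ± 0.995 in nonTV:Malat1 and 11.8% ± 3.30 in OTV:Malat1 (SD, n = 3). In Malat1 ASO it was 13.1% ± 1.82 (SD, n = 2), and exact two-sided permutation tests against ATV:BACE1 gave p from 0.6 to 1. As a share of nuclei not named neurons, the class made up 34.3% ± 3.49 in nonTV:Malat1 and 39.6% ± 2.01 in ATV:BACE1 (SD, n = 3), without overlap (exact permutation p = 0.1, the smallest that 3 against 3 allow). The difference of -5.29 percentage points was -3.27 without nonTV:Malat1 replicate 1, whose share was 30.3%.

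The 5 marker genes Mbp, Mobp, Mog, Mag and St18 were high in the class, which is a description and no test, because names and clusters were made from the same RNAs. At least 1 UMI of them was present in 99.8% of the nuclei, against 46.8% of the neurons, although neurons were deeper (median 3926 UMIs). With each nucleus thinned to 500 UMIs, Mbp, which encodes myelin basic protein, was detected in 85.9% of nuclei (median over libraries) and in 8.12% of neurons. St18 was detected in 76.5% against 4.03%, Mobp in 40.7% against 2.16%, Mog in 40.2% against 1.78% and Mag in 30.5% against 1.19%. Together the 5 markers took 0.957% to 1.22% of UMIs in the 11 libraries. RNA of other cells was present in every group. The 12 neuron markers took 0.178% to 0.332% of UMIs, against 2.63% in neurons, the 10 astrocyte markers 0.0601% to 0.0934% and the 5 precursor markers 0.0108% to 0.0166%. The 8 choroid plexus and ependyma markers took 0.239% to 0.400%, above their 0.0504% in neurons, and no member of these lists was at 0. The choroid plexus and ependyma list holds Enpp2, counted below among the abundant myelin genes, so its share is not RNA of other cells alone. Ttr, a choroid plexus RNA, had a UMI in 52.9% of thinned nuclei, a larger share than Mobp, Mog or Mag, and in 20.7% of neurons.

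In ATV:BACE1, Malat1 led the genes by UMIs with 91056 ± 6684 CPM (UMIs of a gene scaled to a common total of 1e+06; SD, n = 3). It was followed by the protocadherin Pcdh9 with 13419 ± 1572, Nkain2 with 10610 ± 1183, the phosphodiesterase Pde4b with 7936 ± 908 and the scaffold Magi2 with 6664 ± 737. The sodium-calcium exchanger Slc24a2 reached 5651, Tmeff2 4885, Mbp 4036, St18 3368, the RNA-binding protein gene Qk 3351 and Prr5l 2956 CPM. Others among the 20 genes with the most UMIs were Ptprd, Gm42418, Lrp1b, Plcl1, Frmd5, Pex5l, Dock10 and Edil3. These levels are not per length, and long genes collect more nuclear UMIs. Set against the remaining nuclei, the ratio of CPM, among genes of at least 50 CPM in the class, was largest for the unnamed RNAs Gm29455 (36.8), A330072L02Rik (36.6) and A330049N07Rik (34.3) and for Prr5l (33.7), a regulator of the kinase complex mTORC2. Insc, which encodes an adaptor of cell polarity, had a ratio of 32.2. These ratios describe the class and are not a test, because the clusters were made from the same RNAs.

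Genes that mark stages of the lineage were described by thinned detection. Opalin, a gene of mature myelinating cells, was detected in 16.1% of nuclei and 0.660% of neurons, Ptgds in 48.2% and 11.5%, Apod in 21.7% and 2.25%, and Il33 in 13.8% and 0.587%. Klk6, which marks a mature subtype, was detected in 0.390% of nuclei and 0.0356% of neurons. Bcas1, of early myelinating cells, was detected in 30.6% and Enpp6, of newly formed cells, in 7.68%, against 1.81% and 0.287% of neurons. Pdgfra, the growth factor receptor of precursors, was detected in 0.326% of nuclei, below its 0.991% in neurons, whereas the precursor gene Cspg4 was detected in 1.396% against 0.491% and Gpr17 in 0.197% against 0.121%.

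Malat1, the target of the ASO, lies on chromosome 19 from 5795690 to 5802672 on the minus strand of mm10 and is annotated as a long intergenic non-coding RNA. In ATV:BACE1 it took 8.34%, 9.56% and 9.42% of UMIs in replicates 1, 4 and 5. In OTV:Malat1 it took 1.09%, 0.938% and 1.06%. The nonTV:Malat1 libraries had 6.25%, 7.38% and 7.33%, and the 2 Malat1 ASO libraries 9.77% and 9.24%. The OTV:Malat1 libraries thus lay far below those of the other groups, the nonTV:Malat1 libraries lay below the lowest control, and the Malat1 ASO libraries overlapped the controls. Group means were 9.11% ± 0.668 in ATV:BACE1, 6.99% ± 0.637 in nonTV:Malat1 and 1.03% ± 0.0805 in OTV:Malat1 (SD, n = 3), and 9.51% ± 0.381 in Malat1 ASO (SD, n = 2). The OTV:Malat1 mean was 11.3% of the control, the nonTV:Malat1 mean 76.7% and the Malat1 ASO mean 104%. Exact permutation tests against the control gave p = 0.1 for OTV:Malat1 and for nonTV:Malat1, the smallest possible value, and 0.6 for Malat1 ASO. Less Malat1 per nucleus and nuclei without Malat1 were told apart by the counts per nucleus given below.

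**Figure D1:**
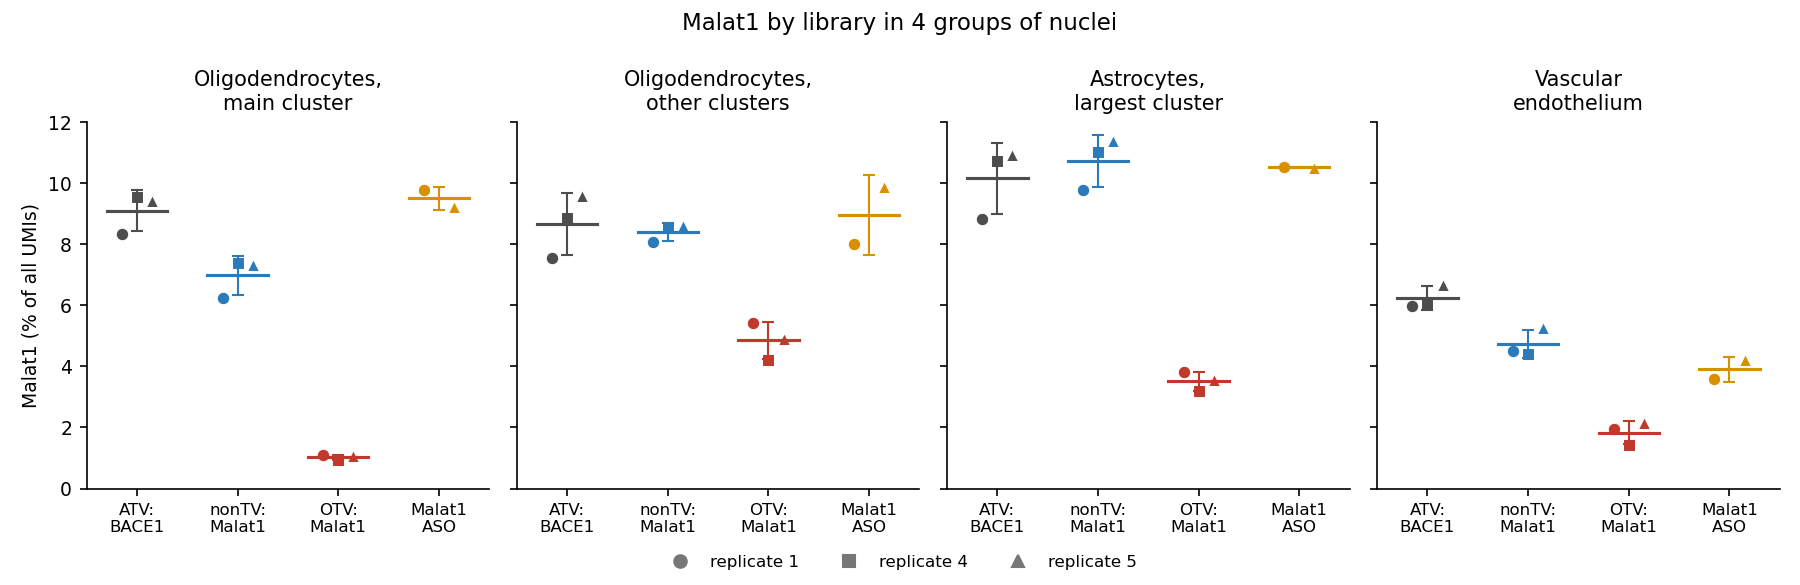
Malat1 as a percentage of all UMIs (vertical axis, 1 scale for all panels) in each library of the 4 dosing groups, for 4 groups of nuclei. Symbols mark the replicate number, horizontal lines the group mean and error bars the SD (n = 3, or 2 for Malat1 ASO); in oligodendrocytes of the main cluster the OTV:Malat1 libraries sit between 0.938% and 1.09%, below every other library shown.

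The change of Malat1 between groups was tested with edgeR on summed counts, with the batch as a block and p-values adjusted over 11480 genes. OTV:Malat1 and ATV:BACE1 both bind the TfR, so OTV:Malat1 against nonTV:Malat1 is the contrast that varies binding at the same dose of conjugate. Malat1 fell by 3.26 on the log2 scale in OTV:Malat1 against ATV:BACE1 (SE 0.128, adjusted p = 3.83e-22), and within batches the log2 ratio was -2.97, -3.53 and -3.29 in replicates 1, 4 and 5. Against nonTV:Malat1, the same dose of conjugate without TfR binding, OTV:Malat1 was lower by a log2 change of -2.85 (SE 0.126, adjusted p = 2.85e-20). Set against Malat1 ASO, its log2 change was -3.38 (SE 0.138, adjusted p = 1.66e-21). With all nuclei named oligodendrocytes in place of those of the cluster, these changes were -2.44, -2.09 and -2.52, and each still passed. The change in nonTV:Malat1 against ATV:BACE1 was -0.41 (SE 0.117) and missed the threshold in edgeR (adjusted p = 1.00). The within-batch values were -0.39, -0.42 and -0.40, so its 3 libraries were lower than the control of their own batch by like amounts. It passed in 1 of the 11 fits that left out a library, that without ATV:BACE1 replicate 1 (-0.50, adjusted p = 0.00523), and without the filter on low counts (adjusted p = 1.17e-09). With total counts in place of TMM it still missed the threshold (adjusted p = 0.0598). Malat1 ASO against ATV:BACE1 gave 0.12 (SE 0.136, adjusted p = 0.957 in edgeR), with within-batch values of 0.37 and -0.04. The nonTV:Malat1 against Malat1 ASO value was -0.53 (SE 0.135, adjusted p = 0.414 in edgeR), which became -0.45 with an adjusted p of 0.0407 under total counts and -0.51 with 0.00586 without ATV:BACE1 replicate 1.

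The counts per nucleus showed that the loss was shared by nearly all nuclei of the class in the OTV:Malat1 libraries. Named oligodendrocytes outside the cluster, with 4.22% to 5.43% Malat1 in OTV:Malat1, are not in these counts. The clustering may have used Malat1, so Malat1 may bear on which nuclei were counted. After thinning every nucleus to 500 UMIs, the median Malat1 count per nucleus in replicates 1, 4 and 5 was 38, 45 and 44 for ATV:BACE1 and 4, 4 and 3 for OTV:Malat1. It was 29, 35 and 33 in nonTV:Malat1 and 45 and 43 in Malat1 ASO. The whole distribution of OTV:Malat1 lay low: the 90th percentile was 9 counts in each of its libraries, whereas the 10th percentile of the ATV:BACE1 libraries was 26 to 31. Nuclei with more than 25 counts made up 0.407% to 0.712% of OTV:Malat1 libraries and 90.7% to 97.2% of ATV:BACE1 libraries. No Malat1 count was left after thinning in 4.41%, 3.87% and 4.72% of nuclei in the OTV:Malat1 libraries, and before thinning in 0.856%, 0.509% and 1.78%. In each library of the other groups both shares were 0, which in the smallest, with 893 nuclei, allows a share of up to 0.336% (counting error only).

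**Figure D2:**
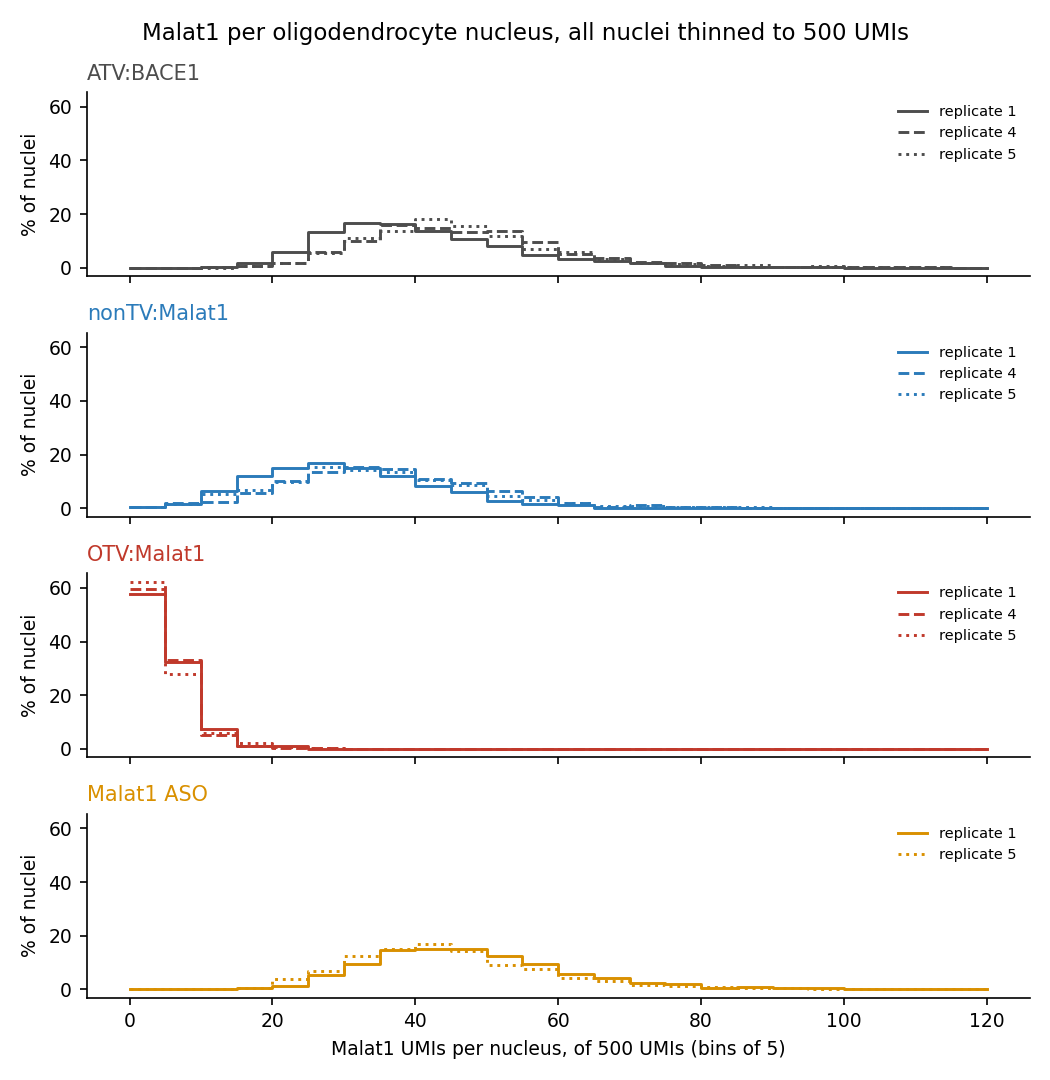
Share of nuclei of the class (vertical axis, %) by Malat1 UMIs per nucleus (horizontal axis, bins of 5) after thinning each to 500 UMIs. Each line is 1 library and each panel 1 dosing group. The OTV:Malat1 nuclei lie almost wholly under 25 counts, the nonTV:Malat1 nuclei spread to the left of the controls, and the Malat1 ASO nuclei lie over the control range.

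A nucleus was called low in Malat1 when its thinned count was at or under 26.3, the mean over control libraries of their 5th percentile. By that choice of threshold the control share lies near 5%. Low nuclei made up 11.6%, 3.83% and 3.36% of ATV:BACE1 replicates 1, 4 and 5, so replicate 1 carries most of the control share. With replicate 1 left out and the threshold set anew from the other controls, the excess in nonTV:Malat1 was 32.6 percentage points. The group means were 6.26% ± 4.62 of ATV:BACE1, 32.5% ± 7.96 of nonTV:Malat1 and 99.5% ± 0.112 of OTV:Malat1 libraries (SD, n = 3), and 4.82% ± 2.32 of Malat1 ASO libraries (SD, n = 2). Exact permutation tests against ATV:BACE1 gave p = 0.1 for OTV:Malat1 and nonTV:Malat1 and 0.8 for Malat1 ASO. In nonTV:Malat1 28.3% of nuclei lay within 5 counts of this threshold, against 16.1% in ATV:BACE1, 0.524% in OTV:Malat1 and 12.3% in Malat1 ASO. The 10th percentile of the nonTV:Malat1 libraries was 15 to 19 counts and the 90th was 46 to 54, beside 58 to 64 for the 90th in ATV:BACE1.

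Loss of Malat1 was seen at every depth. In nuclei of 500 to 750 UMIs, the Malat1 share in OTV:Malat1 was 10.9% of the control share, in those of 750 to 1000 UMIs 10.7%, in those of 1000 to 1500 UMIs 12.1% and in those of at least 1500 UMIs 13.9%. The nonTV:Malat1 values in the same ranges were 73.6%, 75.5%, 74.2% and 80.9%. In Malat1 ASO they were 102%, 104%, 101% and 104%.

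The Malat1 change was set against that of 3 other groups of nuclei of the same mice: oligodendrocytes outside cluster 3, the 11208 astrocytes of their largest cluster, and 1106 nuclei of the vascular endothelium, the cells that bear the barrier TfR. Each library gave a difference of log2 CPM between the class and the compared nuclei, which was tested with limma over all genes measured in both. In OTV:Malat1 against ATV:BACE1 Malat1 had a log2 change of -1.61 in astrocytes, -1.85 in endothelium and -0.88 in the oligodendrocytes outside the cluster. The change in the class was larger by -1.65 than in astrocytes (SE 0.0524, limma adjusted p = 7.72e-18) and by -2.38 than in oligodendrocytes outside the cluster (SE 0.0804, limma adjusted p = 5.17e-24). It was larger by -1.42 than in endothelium (SE 0.213, limma adjusted p = 0.00823). With a spread that does not depend on the mean level, the limma adjusted p was 0.0323 for astrocytes, 0.00418 for oligodendrocytes outside the cluster and 0.337 for endothelium. The difference from endothelium lost its call without ATV:BACE1 replicate 1 (adjusted p = 0.395), without ATV:BACE1 replicate 5 (0.0751), without OTV:Malat1 replicate 1 (0.367), 4 (0.0563) or 5 (0.320), and without the block (0.173). Malat1 was the only gene called in each of these 3 comparisons, 0.0152% of 6585 genes for the oligodendrocytes outside the cluster, 0.00904% of 11067 for astrocytes and 0.0243% of 4123 for endothelium.

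Malat1 shares of UMIs show the same order by library. The 3 OTV:Malat1 libraries had 3.81%, 3.18% and 3.55% in astrocytes, 1.93%, 1.41% and 2.16% in endothelium and 5.43%, 4.22% and 4.90% in oligodendrocytes outside the cluster, all above the 0.938% to 1.09% of the class. The 341 nuclei of cluster 3 with other class names had 1.04%, 1.37% and 0.770%. The oligodendrocytes outside the cluster differ in other ways: their median depth was 1938 UMIs and 8.80% of them were called doublets. Since the clustering may have used Malat1, the difference of -2.38 cannot be taken as independent of how the nuclei were separated. The share of named oligodendrocytes that fell in cluster 3 was 90.3% ± 3.30 in OTV:Malat1 and 91.0% ± 2.16 in ATV:BACE1 (SD, n = 3; exact permutation p = 0.8). The part of doublets in the smaller change outside the cluster was not tested.

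For nonTV:Malat1 against ATV:BACE1, the change in astrocytes was 0.10, and the class differed from it by -0.51 (SE 0.0524, limma adjusted p = 5.33e-06, the only gene called, 0.00904%). With a spread that does not depend on the mean level, the adjusted p of this difference was 0.947. The shares of UMIs in astrocytes were 9.78%, 11.02% and 11.4% in nonTV:Malat1 and 8.83%, 10.7% and 10.9% in ATV:BACE1. In endothelium the change was -0.42, and the class differed from it by 0.016 (SE 0.213, limma adjusted p = 0.998). In oligodendrocytes outside the cluster it was -0.03, and the difference of -0.38 missed the threshold (SE 0.0804, limma adjusted p = 0.249), though it passed when either Malat1 ASO library was left out, with 0.00955 without replicate 1 and 0.00291 without replicate 5. The number of genes called in these last 2 comparisons was 0, which is 0% of 4123 and of 6585 genes. For Malat1 ASO the change was -0.79 in endothelium, where its libraries (3.60% and 4.20%) lay below every control (5.98% to 6.68%). The class differed from endothelium by 0.88, which missed the threshold (SE 0.246, limma adjusted p = 0.573), from astrocytes by 0.01 (limma adjusted p = 0.998) and from oligodendrocytes outside the cluster by 0.07 (limma adjusted p = 1.00). All these comparisons share the ATV:BACE1 libraries.

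Few other genes passed the test. In OTV:Malat1 against ATV:BACE1 edgeR called 2 of 11480 genes (0.0174%), Malat1 lower and Sgk1 higher, while 352 genes (3.07%) had an unadjusted p under 0.05. In nonTV:Malat1 against ATV:BACE1 edgeR called 0 genes (0%), as did DESeq2, and 394 genes (3.43%) had an unadjusted p under 0.05. In Malat1 ASO against ATV:BACE1 6 genes were called (0.0523%), with 652 (5.68%) at an unadjusted p under 0.05. OTV:Malat1 against nonTV:Malat1 gave 2 genes (0.0174%; 412 or 3.59% unadjusted), OTV:Malat1 against Malat1 ASO gave Malat1 alone (0.00871%; 508 or 4.43% unadjusted), and nonTV:Malat1 against Malat1 ASO gave 0 (0%; 547 or 4.76% unadjusted, and 0 in DESeq2). The median log2 change over all genes lay between -0.011 and 0.0046 in the 6 contrasts. With total counts in place of TMM, the median over all genes in OTV:Malat1 against ATV:BACE1 was 0.11 and in OTV:Malat1 against Malat1 ASO 0.16, and the changes below are given after TMM.

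Sgk1 encodes serum- and glucocorticoid-regulated kinase 1, a kinase of ion transport and cell survival whose transcription glucocorticoids induce. Its TMM-normalised CPM in replicates 1, 4 and 5 were 56.8, 92.9 and 55.7 for ATV:BACE1 and 147, 146 and 187 for OTV:Malat1, while Malat1 ASO had 185 and 217. The nonTV:Malat1 libraries had 97.5, 195 and 43.6, so that group spanned both the control and the treated levels, while OTV:Malat1 and Malat1 ASO lay above every control. Sgk1 rose by a log2 change of 1.26 in OTV:Malat1 (SE 0.214, edgeR adjusted p = 0.00362) and by 1.79 in Malat1 ASO (SE 0.236, edgeR adjusted p = 3.53e-05). In nonTV:Malat1 it was 0.69 (edgeR adjusted p = 1.00), which passed without nonTV:Malat1 replicate 5 and without the filter on low counts. Within batches the log2 ratio was 1.36, 0.65 and 1.74 in OTV:Malat1, 1.69 and 1.95 in Malat1 ASO, and 0.78, 1.07 and -0.35 in nonTV:Malat1. The OTV:Malat1 call was lost without ATV:BACE1 replicate 1 (adjusted p = 0.746), ATV:BACE1 replicate 4 (0.0528) or OTV:Malat1 replicate 1 (0.122), and both calls were lost without the block (1.00 and 0.999) and in DESeq2 with the block (1.00 and 0.895). In astrocytes the Sgk1 change was -0.16 in OTV:Malat1 and 0.02 in Malat1 ASO. The class differed from them by 1.39 (SE 0.299, limma adjusted p = 0.482) and 1.78 (SE 0.346, limma adjusted p = 0.137), neither of which passed, and 0% of 11067 genes were called for Malat1 ASO against astrocytes. In oligodendrocytes outside the cluster the Sgk1 changes were 0.46 and 0.60, and in endothelium 0.50 and 0.65, in OTV:Malat1 and Malat1 ASO. The class did not differ from either beyond the threshold (limma adjusted p from 0.862 to 1.00).

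The gene spans 21882184 to 21999903 on the plus strand of chromosome 10 of mm10 and has several annotated starts. RefSeq start windows of 300 bases (250 before to 50 after a start, GRCm38.p6) were found for Malat1, Sgk1 (6 windows), Polr3e, Adipor2 and Hbb-bs among the genes called, 10 windows in all. They were searched on both strands for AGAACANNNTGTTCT, the full palindrome that the glucocorticoid receptor is known to bind, and for its arms AGAACA and TGTTCT. The palindrome was in 1 of them, the Sgk1 window chr10:21993640-21993939, where it starts 189 bases before the start site, and it was in 3 of all 32851 windows (0.00913%). An arm alone, with which the palindrome overlaps, was in 6233 windows (19.0%) and in 4 of the 10 searched, 3 of Sgk1 and that of Hbb-bs. The Sgk1 window is shown because it holds that motif, which is in capitals, on the plus strand.
Sgk1 window: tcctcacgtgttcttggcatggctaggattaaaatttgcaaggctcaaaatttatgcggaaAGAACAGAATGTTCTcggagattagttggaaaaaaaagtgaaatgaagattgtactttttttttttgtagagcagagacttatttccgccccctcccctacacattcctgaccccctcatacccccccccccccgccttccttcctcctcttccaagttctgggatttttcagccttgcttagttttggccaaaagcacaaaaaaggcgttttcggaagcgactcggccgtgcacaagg
The windows searched are of genes already called, most of them of Sgk1, which glucocorticoids are known to induce. The match is thus no independent evidence. It is a description of these letters, and binding there was not measured.

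In Malat1 ASO against ATV:BACE1, 5 genes rose and 1 fell. Sgk1 is described above. Adipor2, which encodes an adiponectin receptor and lies on chromosome 6 (119353150 to 119417704 of mm10), had 575, 583 and 365 CPM in ATV:BACE1 and 1068 and 680 in Malat1 ASO, a log2 change of 0.90 (SE 0.151, edgeR adjusted p = 0.00165). Its nonTV:Malat1 libraries ranged from 280.2 to 757 and its OTV:Malat1 libraries from 491 to 838 CPM, so both overlapped the control. Within batches its log2 ratio to the control was 0.54, 0.04 and 0.43 in OTV:Malat1 and 0.23, 0.38 and -0.38 in nonTV:Malat1. Polr3e, a subunit gene of RNA polymerase III on chromosome 7 (120917744 to 120947432), had 63.5, 88.0 and 63.6 CPM in ATV:BACE1 and 124 and 146 in Malat1 ASO, a log2 change of 1.05 (SE 0.174, edgeR adjusted p = 0.00165). In OTV:Malat1 it had 92.4, 104 and 115 CPM, above every control library, with a change of 0.53 (edgeR adjusted p = 1.00). Zbtb16, a zinc finger factor gene on chromosome 9 (48654297 to 48836222) that glucocorticoids induce, had 63.5, 79.1 and 86.2 CPM in ATV:BACE1 and 158 and 124 in Malat1 ASO, a log2 change of 0.99 (SE 0.207, edgeR adjusted p = 0.0493). In OTV:Malat1 its change was 0.00 on the log2 scale. With Malat1 ASO the Zbtb16 change was 0.96 in oligodendrocytes outside the cluster, 0.60 in astrocytes and 1.82 in endothelium. Adipor2 had 0.71, -0.13 and 0.41 in the same nuclei. Polr3e had 0.78 in oligodendrocytes outside the cluster and 0.18 in astrocytes, and was not tested in endothelium. For these genes the class did not differ from the compared nuclei beyond the threshold (limma adjusted p of at least 0.0507).

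These calls rested on few libraries. Adipor2 and Polr3e were called no longer without ATV:BACE1 replicate 1 (adjusted p = 0.149 and 0.148), without Malat1 ASO replicate 1 (0.104 and 0.128) or without its replicate 5 (0.416 and 0.404). Zbtb16 was lost without ATV:BACE1 replicate 1 (0.999) or 4 (0.183) and without Malat1 ASO replicate 1 (0.996) or 5 (0.724), and it held in 1 of 9 other settings: it was also lost with total counts (0.263), with Malat1 left out of library sizes (0.0723), with all nuclei named oligodendrocytes (0.0562), with the called doublets left out (0.0566) and with nuclei under 1000 UMIs left out (0.185). Sgk1 in this contrast passed in all 11 fits that left out a library, with adjusted p up to 0.0419. Without the block 0 of the 6 genes were called, and in DESeq2 0 as well (edgeR at an unadjusted p under 0.05, with the block, 652 genes). Gm47283 rose too (log2 change 1.96, edgeR adjusted p = 0.00165). It is annotated on chromosome Y yet had 58 UMIs in the female control library and 297 in the female Malat1 ASO library, so its reads cannot be tied to that locus. Its call was lost without ATV:BACE1 replicate 1 and without Malat1 ASO replicate 1, where the change was 0.99. Hbb-bs, a globin of red blood cells, had 67, 3 and 2 UMIs in ATV:BACE1 and 0 and 0 in Malat1 ASO (edgeR adjusted p = 0.0493). Its UMIs were mostly in ATV:BACE1 replicate 1 and in OTV:Malat1 replicate 5 (34 UMIs), and the call held in 1 of 8 other settings. Leave-one-out losses were those without ATV:BACE1 replicate 4 (adjusted p = 0.0683), OTV:Malat1 replicate 4 (0.0700) or Malat1 ASO replicate 1 (0.998) or 5 (0.795), of 9 fits that left out a library and kept the gene.

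**Figure D3:**
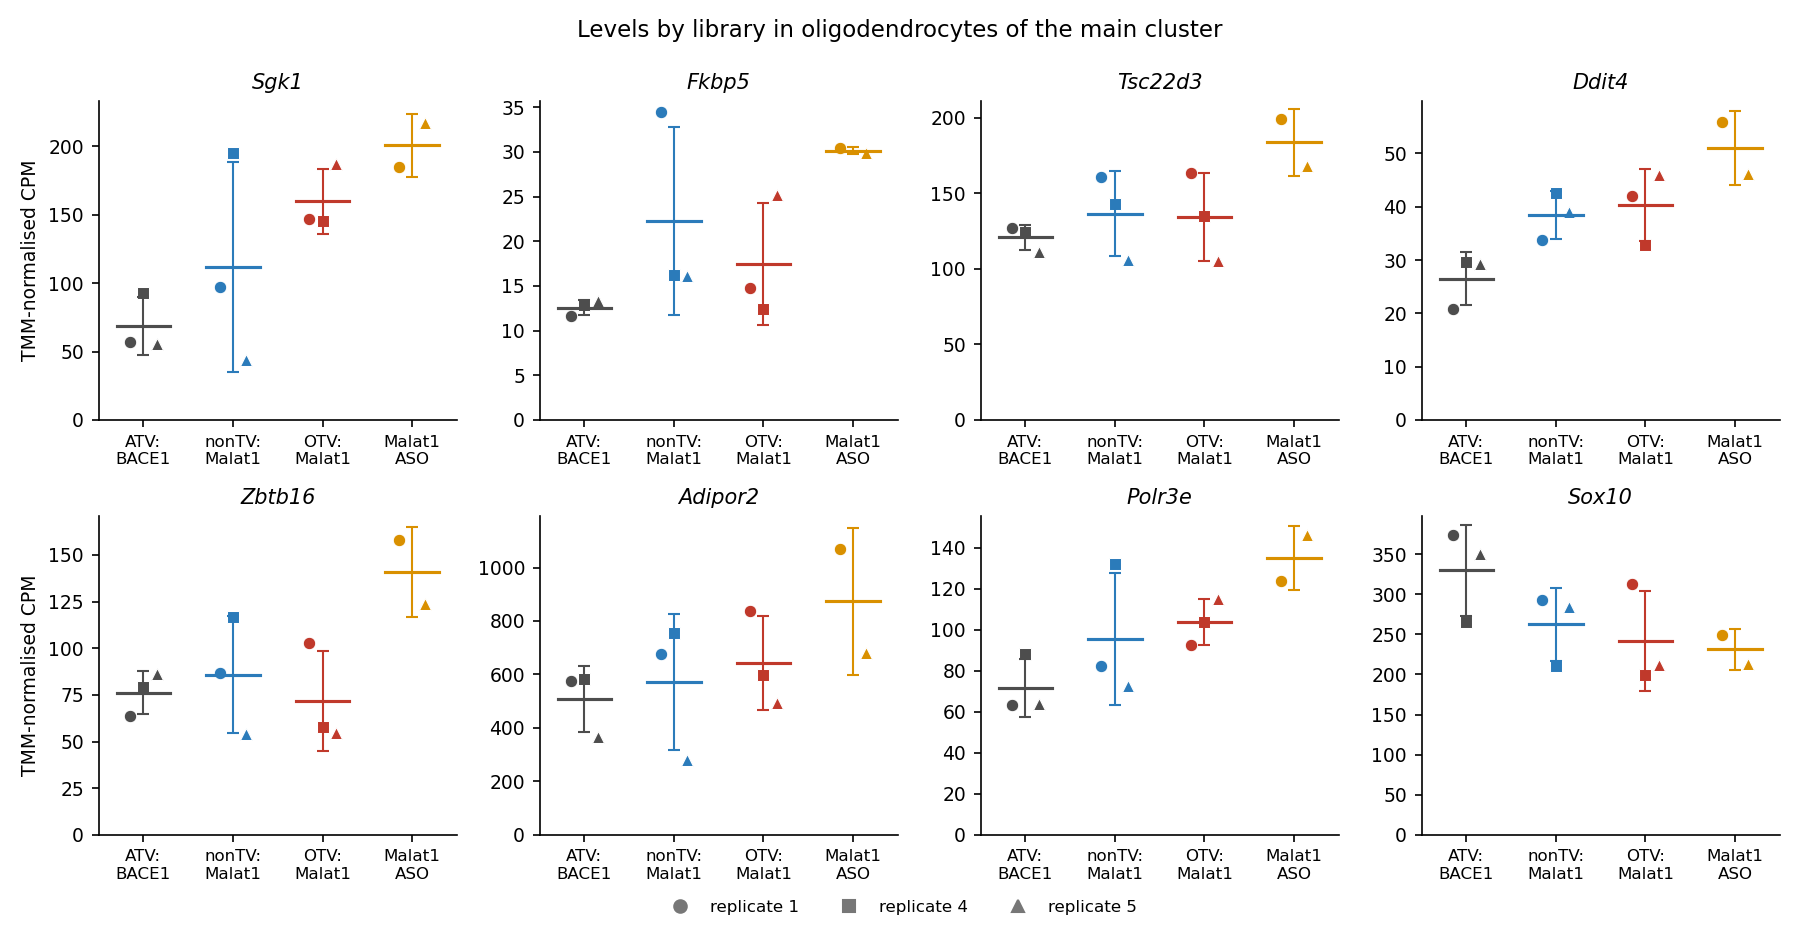
TMM-normalised CPM (vertical axis, from 0) in each library for 8 genes: Sgk1, Fkbp5, Tsc22d3, Ddit4 and Zbtb16 of the corticosteroid list, Adipor2 and Polr3e, called in Malat1 ASO, and Sox10. Symbols mark the replicate, lines the group mean and error bars the SD (n = 3, or 2 for Malat1 ASO); both Malat1 ASO libraries of Sgk1, 185 and 217 CPM, lie above the highest control of 92.9 CPM.

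In OTV:Malat1 against nonTV:Malat1 the gene called besides Malat1 was mt-Co1, a mitochondrially encoded subunit of cytochrome c oxidase. Its CPM were 156, 95.9 and 90.8 in OTV:Malat1 and 252, 155 and 147 in nonTV:Malat1, a log2 change of -0.69 (SE 0.131, edgeR adjusted p = 0.0271). In ATV:BACE1 they were 160, 86.0 and 113, overlapping both groups. Within batches the log2 ratio to the control was 0.66, 0.85 and 0.38 in nonTV:Malat1 and -0.04, 0.16 and -0.31 in OTV:Malat1. Against the control nonTV:Malat1 had a log2 change of 0.64 (edgeR adjusted p = 0.0937). That change passed without the filter on low counts, with all nuclei named oligodendrocytes and without OTV:Malat1 replicate 5. Mitochondrial RNA as a whole, which in nuclei is carried over from the cytoplasm, took 0.0699% ± 0.0265 of UMIs in nonTV:Malat1, 0.0467% ± 0.0105 in OTV:Malat1 and 0.0417% ± 0.0181 in ATV:BACE1 (SD, n = 3). Its part in the mt-Co1 result was not tested. The deposited mitochondrial percent is another quantity: it equals, within 0.0001, the share of 71 genes whose symbols start with Mt in all 110304 nuclei, and those of the mitochondrial genome start with mt- (13 genes). Its library medians overlapped between nonTV:Malat1 (0.313% to 0.346%) and OTV:Malat1 (0.324% to 0.349%). The call was lost without nonTV:Malat1 replicate 1 (adjusted p = 0.585) or 4 (0.160), without any of the OTV:Malat1 replicates (0.401, 0.0582 and 0.113 for 1, 4 and 5) and without either Malat1 ASO library (0.0683 and 0.0687). It held in 4 of 9 other settings and was lost without the block (1.00), in DESeq2 with the block (0.121) and without it (1.00), with total counts (0.211) and with nuclei under 1000 UMIs left out (0.824).

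The remaining results are for gene lists chosen by function. None of the 30 compact and adaxonal myelin genes was called in OTV:Malat1, nonTV:Malat1 or Malat1 ASO against ATV:BACE1, beside 0.0174%, 0% and 0.0523% of all genes. With so few genes called, a count of 0 in a list says little. The median log2 change of these myelin genes was -0.022, 0.0038 and 0.085. Mbp had 4034, 4663 and 3925 CPM with ATV:BACE1, 4668, 4279 and 4001 with OTV:Malat1, 4365, 5043 and 4011 in nonTV:Malat1 and 5014 and 4327 in Malat1 ASO, so its groups overlapped. Each nonTV:Malat1 and Malat1 ASO library was above the control of its own batch, as was each OTV:Malat1 library except replicate 4. Mobp, a protein of the cytoplasmic face of myelin, had 1106, 1090 and 912 CPM in ATV:BACE1 and 1418 and 1367 in Malat1 ASO, a log2 change of 0.44 that missed the threshold (edgeR adjusted p = 0.437). Of 25 genes of myelin lipid synthesis 0 were called in the 3 contrasts, beside the same shares of all genes. Fa2h, a fatty acid hydroxylase gene, had log2 changes of -0.08, 0.11 and 0.15 in OTV:Malat1, nonTV:Malat1 and Malat1 ASO, and Ugt8a, which makes galactocerebroside, of 0.07, 0.12 and 0.07. The desaturase gene Scd2 had -0.06, -0.12 and -0.07 and the elongase gene Elovl7 -0.03, 0.02 and -0.15. Of the other abundant myelin genes, Enpp2, which encodes autotaxin, had 0.02, 0.06 and 0.01 and Aspa, the aspartoacylase gene, -0.08, 0.00 and 0.02.

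**Figure D4:**
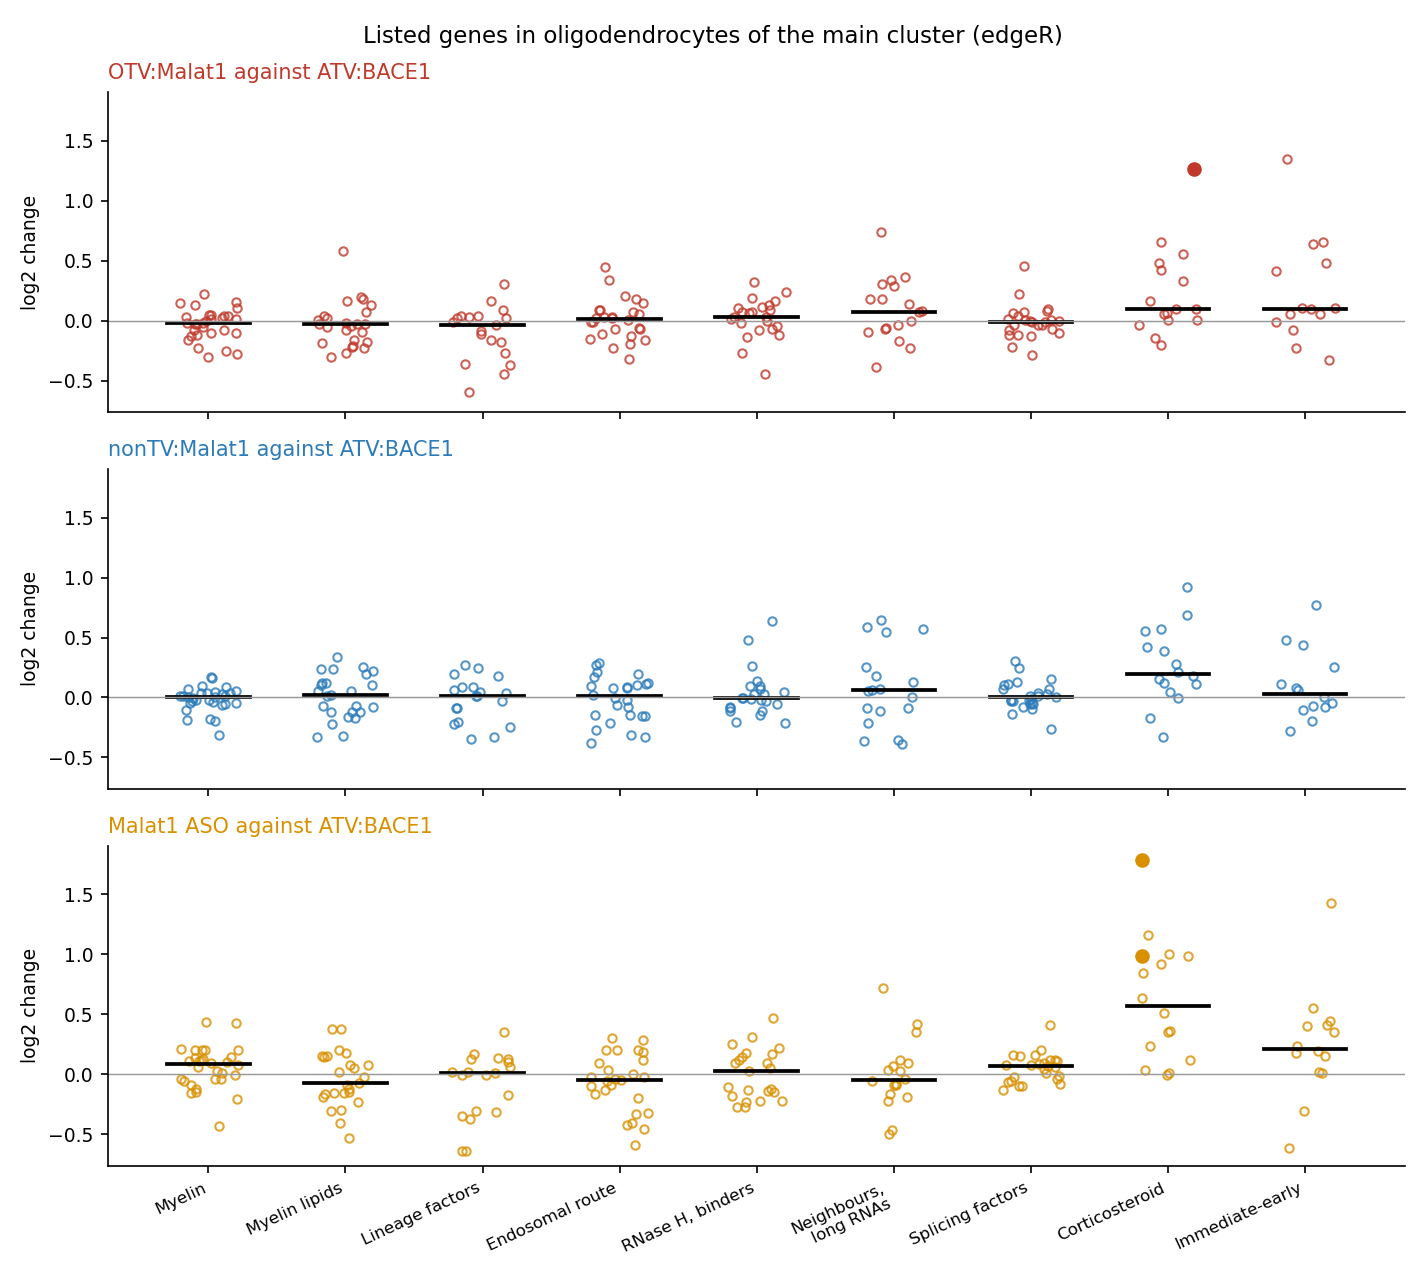
Log2 change against ATV:BACE1 from edgeR (vertical axis) for the tested members of 9 gene lists, 1 circle per gene and 1 panel per contrast, with filled circles for genes at an adjusted p under 0.05 and black lines for list medians. The median farthest from 0 is that of the corticosteroid list in Malat1 ASO, at 0.57, where the filled circles are Sgk1 and Zbtb16; the same list has 0.20 in nonTV:Malat1 and 0.10 in OTV:Malat1.

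Lineage factors were tested for 19 of 20 genes, and 0 were called in these 3 contrasts, beside 0.0174%, 0% and 0.0523% of all genes. Sox10, a factor that oligodendrocytes need throughout their life, had 374, 265 and 350 CPM with ATV:BACE1, 313, 200 and 211 with OTV:Malat1, 293, 210 and 284 in nonTV:Malat1 and 250 and 214 in Malat1 ASO. Both Malat1 ASO libraries lay below every control, with a log2 change of -0.64 (edgeR adjusted p = 0.0757), and the changes were -0.44 in OTV:Malat1 and -0.33 in nonTV:Malat1 (edgeR adjusted p = 1.00 for both). Every OTV:Malat1, nonTV:Malat1 and Malat1 ASO library had less Sox10 than the control of its own batch. In Malat1 ASO Sox10 did pass with total counts, without the filter on low counts and without OTV:Malat1 replicate 5. Nkx2-2, another lineage factor, had log2 changes of -0.59 in OTV:Malat1, -0.22 in nonTV:Malat1 and -0.64 in Malat1 ASO, without passing the test. St18 had log2 changes of 0.03, 0.03 and 0.10, the zinc finger factor Zeb2 of 0.04, 0.09 and 0.01 and Zfp536 of -0.04, 0.01 and 0.17. Of the 14 tested precursor and early genes and the 17 tested mature subtype genes 0 were called, beside the same shares of all genes, and their medians lay between -0.06 and 0.01. Car2, carbonic anhydrase of mature cells, had log2 changes of 0.22, 0.22 and 0.27, and Ptgds of -0.05, 0.06 and -0.04. Grm3, a glutamate receptor gene, had -0.02, 0.06 and 0.11, Bcas1 had 0.04, 0.01 and -0.04, and Fyn, the kinase that acts in the start of myelination, had 0.05, 0.08 and 0.16. In the list of axon support and metabolite transport 1 of 19 tested genes, Sgk1, was called in OTV:Malat1 and in Malat1 ASO, beside 0.0174% and 0.0523% of all genes, and 0 in nonTV:Malat1. There the ferritin gene Fth1 had log2 changes of 0.11, 0.25 and 0.05 and the transferrin gene Trf of -0.13, 0.05 and -0.15.

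Genes of the route and action of the ASO are given as values, since with 0.0174%, 0% and 0.0523% of all genes called in the 3 contrasts, a count of 0 in a short list says little. Of 30 genes for receptor uptake and endosomal sorting 26 were tested, with 0 called in each of the 3 contrasts and medians of 0.01, 0.01 and -0.04. The dynamin gene Dnm2 had log2 changes of 0.07, 0.11 and 0.28, the sorting nexin gene Snx1 of 0.06, 0.08 and 0.30, and the lysosomal membrane genes Lamp1 of 0.09, -0.15 and -0.02 and Lamp2 of -0.23, -0.14 and -0.06. The mouse receptor gene Tfrc was low, at 14.7 to 36.1 CPM over the 11 libraries. Its log2 change was 0.21 (SE 0.259) in OTV:Malat1, 0.21 (SE 0.267) with nonTV:Malat1 and -0.32 (SE 0.317) with Malat1 ASO. Rnaseh1, the gene of the enzyme that cuts the ASO target, had 12.04 to 31.5 CPM and log2 changes of 0.03, 0.48 and 0.12, and 0 of the 23 genes of its list were called. Its most abundant members were Xrcc6, of the Ku complex, with 0.12, -0.03 and 0.05, and the chaperone genes Hsp90ab1 with 0.07, 0.00 and -0.18, Hspa8 with 0.03, 0.07 and -0.12 and Hsp90aa1 with 0.06, 0.03 and -0.13. Neat1, the architectural RNA of paraspeckles that neighbours Malat1, had 1625, 1370 and 1744 CPM in ATV:BACE1 and 1439, 1508 and 1561 in OTV:Malat1, a log2 change of -0.07 (SE 0.106, edgeR adjusted p = 1.00). None of the 18 tested neighbours and nuclear long RNAs was called against ATV:BACE1. Meg3, a long RNA abundant in neurons, had log2 changes of 0.18, -0.39 and -0.06, while the neuron markers took 0.208% to 0.249% of UMIs in nonTV:Malat1 and 0.229% to 0.270% in ATV:BACE1, and their part in it was not tested. In OTV:Malat1 against nonTV:Malat1 the Meg3 change of 0.57 (edgeR adjusted p = 0.0715) passed with total counts, without the filter on low counts, and without ATV:BACE1 replicate 1, ATV:BACE1 replicate 5 or nonTV:Malat1 replicate 5. In that contrast 11 of 12 neuron markers were positive with a median of 0.14, and the list took 0.222% to 0.332% of UMIs in OTV:Malat1. Malat1 RNA binds serine-arginine splicing factors in nuclear speckles. Of 25 genes in a list of these factors and related splicing regulators 0 were called, with medians of -0.01, 0.01 and 0.07. Qk, whose protein oligodendrocytes use to splice myelin RNAs, had log2 changes of 0.00, 0.02 and 0.12. The splicing regulator Mbnl2 had -0.04, 0.07 and 0.08, the speckle protein gene Son 0.04, -0.03 and 0.04 and Tra2a -0.07, 0.03 and 0.16.

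Among the 21 lists, the corticosteroid list had the median farthest from 0 in Malat1 ASO against ATV:BACE1. In nonTV:Malat1 the choroid plexus list was farther (0.30), and in OTV:Malat1 the precursor markers (-0.21). Of 16 tested members, 15 had a positive log2 change with Malat1 ASO over ATV:BACE1, with a median of 0.57, against a median of 0.0046 over all genes, and 2 were called, Sgk1 and Zbtb16, beside 0.0523% of all genes. An unadjusted p under 0.05 was reached by 9 of the 16, beside 5.68% of all genes. In OTV:Malat1 13 of 16 were positive with a median of 0.10, 1 was called, beside 0.0174% of all genes, and 3 had an unadjusted p under 0.05, beside 3.07%. In nonTV:Malat1 13 of 16 were positive with a median of 0.20, 0 were called, beside 0% of all genes, and 5 had an unadjusted p under 0.05, beside 3.43%. Single libraries move these medians: with each library left out they ran from 0.066 (without ATV:BACE1 replicate 1) to 0.23 (without ATV:BACE1 replicate 5) in OTV:Malat1, from 0.13 (without ATV:BACE1 replicate 1) to 0.31 (without nonTV:Malat1 replicate 5) in nonTV:Malat1 and from 0.44 to 0.75 (without Malat1 ASO replicate 5 or 1) in Malat1 ASO. With total counts the OTV:Malat1 median was 0.21. The list was chosen with earlier results of these mice known, so its direction is no independent evidence. Fkbp5, a co-chaperone of the glucocorticoid receptor, had 11.6, 12.8 and 13.3 CPM in ATV:BACE1, 34.5, 16.2 and 16.1 in nonTV:Malat1, 14.8, 12.4 and 25.2 in OTV:Malat1 and 30.4 and 29.9 in Malat1 ASO. Its Malat1 ASO change of 1.16 did not pass (SE 0.32, edgeR adjusted p = 0.324). Tsc22d3, which encodes the glucocorticoid-induced leucine zipper protein, had 127, 125 and 111 CPM in ATV:BACE1 and 199 and 168 in Malat1 ASO, a change of 0.64 (edgeR adjusted p = 0.121). Ddit4, an inhibitor of mTOR signalling, had 20.8, 29.7 and 29.2 CPM in ATV:BACE1 and 55.9 and 46.1 in Malat1 ASO, a change of 1.00 (edgeR adjusted p = 0.115); it passed without the filter on low counts and without OTV:Malat1 replicate 5. The receptor genes Nr3c1 and Nr3c2 had log2 changes of 0.00 and 0.24 in Malat1 ASO. The metallothionein gene Mt1 had 0.09, 0.39 and 0.01 with OTV:Malat1, nonTV:Malat1 and Malat1 ASO, and the factor Klf9 0.01, -0.01 and 0.36.

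Clock, immediate-early and stress genes had no call in these contrasts, with 18, 14 and 11 members tested. Of all genes, 0.0174%, 0% and 0.0523% were called in OTV:Malat1, nonTV:Malat1 and Malat1 ASO. The clock medians were 0.0024 in OTV:Malat1, 0.02 in nonTV:Malat1 and -0.05 in Malat1 ASO. Per1, which is both a clock and a corticosteroid gene, had log2 changes of 0.56, 0.42 and 0.85 without passing the test. Clock had 0.13, 0.06 and 0.19 and the nuclear receptor Rora 0.00, -0.16 and 0.02. In the same order the immediate-early list had medians of 0.10, 0.03 and 0.21, with 10, 8 and 12 of 14 members positive. Jund, the most abundant tested member of that list, had -0.08, -0.05 and -0.31. The endoplasmic reticulum chaperone Hspa5 had 0.12, -0.02 and -0.26. Fos, an early gene of cell stimulation, was scarce: 4.89, 3.95 and 5.30 CPM with ATV:BACE1, 15.3, 3.55 and 17.5 with OTV:Malat1 and 14.9 and 16.2 in Malat1 ASO. Its change was 1.35 in OTV:Malat1 and 1.43 in Malat1 ASO (edgeR adjusted p = 1.00 and 0.566). Hspb1, a small heat shock protein, had a log2 change of 1.37 in nonTV:Malat1 (edgeR adjusted p = 0.587; it passed without the filter on low counts), with 29.3, 6.09 and 28.7 CPM against 12.8, 3.95 and 5.30 in ATV:BACE1. The level of Ttr was 2442, 1171 and 1884 CPM in ATV:BACE1 and 1146, 1416 and 1158 in OTV:Malat1, a change of -0.52 that missed the threshold (edgeR adjusted p = 1.00) but passed without the filter on low counts, without ATV:BACE1 replicate 4 and without OTV:Malat1 replicate 4. The 6 tested choroid plexus genes, Enpp2 among them, had medians of -0.16 in OTV:Malat1, 0.30 in nonTV:Malat1, where 6 of 6 were positive, and -0.34 in Malat1 ASO. In OTV:Malat1 against nonTV:Malat1 6 of 6 were negative with a median of -0.51, and the Ttr change of -0.63 (edgeR adjusted p = 0.116) passed without the filter on low counts and without ATV:BACE1 replicate 1, 4 or 5 or OTV:Malat1 replicate 4. Of the marker lists for other cells, 0 of 12 neuron, 10 astrocyte, 5 microglia, 5 endothelial, 5 precursor and 6 choroid plexus genes tested were called in the 3 contrasts, beside 0.0174%, 0% and 0.0523% of all genes. With OTV:Malat1, nonTV:Malat1 and Malat1 ASO, the neuron list had medians of 0.01, -0.16 and -0.16, with 10 of 12 genes negative in each of the last 2 groups. The astrocyte list had 0.00, 0.18 and -0.14, and its share of UMIs was 0.0601% to 0.0620% in Malat1 ASO, below the 0.0674% to 0.0727% of ATV:BACE1. The microglia list had 0.19, -0.01 and -0.03, the endothelial list -0.11, 0.13 and -0.19, and the precursor list -0.21, -0.07 and -0.09. The part of such RNA in the changes above was not tested. The glutamate transporter gene Slc1a2 of astrocytes had log2 changes of 0.05, -0.02 and -0.25 and the tight junction gene Cldn5 of endothelium of -0.11, 0.25 and -0.29.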

How the data were processed

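Single-nucleus RNA sequencing of 11 libraries was deposited as 1 matrix of UMI counts per gene and nucleus, which the authors made with Cell Ranger 5.0.0 and Seurat 4 on mm10, per the submitters' processing notes. The deposited metadata hold a percent per nucleus named as mitochondrial, which sums genes whose symbols start with Mt, and, as fractions, the class prediction score and the doublet score. Names, clusters and doublet calls were used as deposited, and the sources used here do not give the genes used for clustering.

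Counts of the class were summed per library and tested with edgeR 4.0.16 quasi-likelihood (R 4.3.3), with TMM scaling, edgeR's filter on low counts by group, and the replicate number, which follows the batch, as a block. All 11 libraries entered 1 fit, and p-values were Benjamini-Hochberg adjusted over 11480 genes with a threshold of 0.05. The numbers pair the libraries: deviations from group means correlated at 0.385 to 0.728 between libraries of the same number (15 pairs, 4015 genes) and at -0.642 to 0.171 between different numbers. Differences between groups of nuclei were tested with limma 3.58.1 on within-library differences of log2 CPM (prior count 2, spread modelled on the mean level). Single values were compared by exact two-sided permutation over libraries, with a smallest p of 0.1 for 3 against 3. Within-batch ratios add 0.5 to each CPM. Thinning drew 500 UMIs per nucleus. The edgeR and limma tests were also run on simulated counts, with means and spread taken from the edgeR fit. Those counts held no batch effect, and the compared nuclei were drawn independently of the class. They therefore cannot show how the block or the within-library differences perform. DESeq2 1.42.0 and the other alternatives are given in the closing section.

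The members and the 21 gene lists were chosen with earlier results of these data known. Genes were named if they were Malat1, were called, were among the 20 with the most UMIs or the 10 with the largest ratio to other nuclei, or were among the 4 most abundant tested members of a list. Apod, Ddit4, Fkbp5, Fos, Hspb1, Klk6, Mag, Nkx2-2, Gpr17, Nr3c2, Opalin, Per1, Rnaseh1 and Tfrc fall outside this rule and were chosen after their values were seen. Each library is 1 mouse, and depth limits precision, with 769356 to 1781465 UMIs per library. No replicate 4 of Malat1 ASO is among the libraries, all of which were analysed. Some genes that the rule would name are not reported here.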

Additional observations from a re-analysis of the deposited data

Results flagged for a closer look

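In 4 comparisons the Malat1 change in the class differed from that in other nuclei of the same mice by limma's test of the difference. For OTV:Malat1 against ATV:BACE1, the change in the class minus that in oligodendrocytes outside cluster 3 was -2.38 (limma adjusted p = 5.17e-24, or 0.00418 with a spread not modelled on the mean level). Minus that in astrocytes it was -1.65 (limma adjusted p = 7.72e-18, or 0.0323 with that spread). Minus that in vascular endothelium it was -1.42 (limma adjusted p = 0.00823), a call lost in 5 of 11 fits that left out a library and in 3 of 4 other settings (0.0666, 0.173 and 0.337). For nonTV:Malat1 against ATV:BACE1, the change minus that in astrocytes was -0.51 (limma adjusted p = 5.33e-06), or 0.947 with a spread not modelled on the mean level. All 4 share the ATV:BACE1 libraries. No group was large enough to test for a library far from the others.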

How the results depend on the processing

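The fall of Malat1 in OTV:Malat1 kept its direction and its call against ATV:BACE1, nonTV:Malat1 and Malat1 ASO under all alternatives run, and with each library left out it ranged from -3.37 to -3.14, -2.96 to -2.73 and -3.52 to -3.23 on the log2 scale. With all nuclei named oligodendrocytes it was smaller, at -2.44, -2.09 and -2.52. Without the replicate block it was -3.27 against ATV:BACE1 (edgeR adjusted p = 8.17e-10). For nonTV:Malat1 the range was -0.50 to -0.33 against ATV:BACE1 and -0.67 to -0.38 against Malat1 ASO. Without the filter on low counts these values were -0.40 and -0.53 and passed the test, as did -0.45 against Malat1 ASO with total counts. Malat1 ASO against ATV:BACE1 ranged from -0.034 to 0.26, and -0.034 was found without Malat1 ASO replicate 1.

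Counts of called genes were less stable. Without the replicate block 1 gene was called in OTV:Malat1 against ATV:BACE1, 0 in Malat1 ASO against ATV:BACE1 and 1 in OTV:Malat1 against nonTV:Malat1, and DESeq2 with or without the block gave the same counts of 1, 0 and 1 (652 genes at an unadjusted p under 0.05 in edgeR for Malat1 ASO). Without the filter on low counts 5, 11, 18, 8, 6 and 7 genes were called in OTV:Malat1, nonTV:Malat1 and Malat1 ASO against ATV:BACE1, OTV:Malat1 against nonTV:Malat1, OTV:Malat1 against Malat1 ASO and nonTV:Malat1 against Malat1 ASO. With each library left out, the ranges in that order were 1 to 4, 0 to 4, 1 to 12, 1 to 6, 1 to 3 and 0 to 5. All nuclei named oligodendrocytes gave 3 for nonTV:Malat1 against ATV:BACE1 and 4 for nonTV:Malat1 against Malat1 ASO. Nuclei of at least 1000 UMIs gave 1 for OTV:Malat1 against nonTV:Malat1 and 3 for nonTV:Malat1 against Malat1 ASO, where total counts gave 1. In Malat1 ASO against ATV:BACE1 the split of 5 higher and 1 lower became 4 higher and 0 lower with Malat1 left out of library sizes, with called doublets left out, or with nuclei under 1000 UMIs left out. In OTV:Malat1 against nonTV:Malat1, total counts gave 1 higher and 1 lower in place of 0 and 2. The causes were not tested.

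The excess of low nuclei over ATV:BACE1 was 87.2 percentage points in OTV:Malat1 with the 10th percentile as threshold, against 93.2, and leaving out libraries gave 93.2 to 93.4 in OTV:Malat1, 21.8 to 32.6 in nonTV:Malat1 and -3.08 to 1.44 in Malat1 ASO. The threshold was set anew when a control library was left out. Of nuclei not named neurons, the class share in nonTV:Malat1 differed by -5.29 percentage points, against -0.216 of all nuclei, and leaving out a library of either group, an alternative chosen after seeing the data, gave -6.42 to -3.27. The OTV:Malat1 difference from endothelium, -1.42, missed the threshold with a prior count of 0.5 (limma adjusted p = 0.0666), without the replicate block (0.173) and with a spread not modelled on the mean (0.337), and ranged from -1.46 to -1.32 with each library left out. For nonTV:Malat1 that difference ranged from -0.034 to 0.11, being -0.034, -0.033, -0.0033 and -0.031 without ATV:BACE1 replicate 1 or 4 and nonTV:Malat1 replicate 4 or 5. The nonTV:Malat1 difference from astrocytes, -0.51, had an adjusted p of 0.947 with a spread not modelled on the mean, and ranged from -0.54 to -0.45. That from oligodendrocytes outside the cluster ranged from -0.44 to -0.29. The OTV:Malat1 differences ranged from -2.46 to -2.33 for oligodendrocytes outside the cluster and from -1.68 to -1.59 for astrocytes. With a spread not modelled on the mean, their limma adjusted p rose to 0.00418 and 0.0323. Depth limits single genes: 59.3% of the nuclei held under 1000 UMIs.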
